A study of Mus musculus with 6 samples.

Results

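The transcription factors that pattern the dental mesenchyme were chosen by name and are Msx1, Msx2, Pax9, Lhx6, Lhx8, Barx1, Prrx1, Twist1 and Tfap2b. Of these 9 genes, 8 were measured among the 19060 genes of the count table, and Tfap2b was not analysed here. RNA was sequenced from the proximal end of the mouse incisor, with 3 control and 3 mutant samples. Control mice were Fgfr1fl/fl, with loxP sites around both Fgfr1 alleles, although one label calls them wild type. Mutant mice were Gli1CreER;Fgfr1fl/fl, in which tamoxifen lets Cre act in Gli1+ cells, so the deletion was aimed at these cells and their progeny. Which cells of the incisor kept the receptor was not measured here. All mice were 1 month old and were collected 1 week after tamoxifen. The comparison asks how the incisor's transcripts differ when FGF signalling through FGFR1 is lost in the Gli1+ mesenchymal stem cells.

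Tooth mesenchyme comes from cranial neural crest, and homeobox genes expressed in it in overlapping fields specify where teeth form and of which kind. Msx1 and Pax9 respond to epithelial BMP and FGF signals in the tooth bud and maintain Bmp4 in the mesenchyme. The mouse incisor grows throughout life from stem cells at its proximal end, so these developmental factors can be examined in an adult tooth.

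None of the 8 measured factors passed the test for a difference between the genotypes. With edgeR's two-sided quasi-likelihood test, adjusted by Benjamini-Hochberg over 15826 genes, 0 of 8 were past the study's threshold, an unadjusted p under 0.05 with a change of over 1.5-fold. Over all genes, 10.9% were past it as higher and 8.92% as lower in the mutant samples. At an adjusted p under 0.05 there were also 0 of 8, against 6.79% of all genes, and 0 of 8 had an unadjusted p under 0.05. DESeq2 and limma-voom gave 0 as well on each of these counts. The log2 fold changes were positive for 4 genes and negative for 4, with a median of 0.05 beside -0.04 for all genes tested. Mutant and control samples overlapped for all 8 genes, whereas the mutant samples were all below the controls for 16.3% of all genes and all above them for 14.1%. A p that misses the threshold does not show equal levels, and the interval of each difference is given with each gene. Nothing in the sources used here states that each sample is a separate animal, so the p-values measure only the spread between these samples.

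The targeted gene, Fgfr1, had 529, 924 and 434 CPM in controls against 148, 318 and 262 CPM in mutants, where CPM is counts scaled to a common library size after upper-quartile scaling. Its log2 fold change was -1.37 (SE 0.40; unadjusted p = 0.00846, adjusted p = 0.0881, edgeR), and it was -0.76 after correcting for length of the transcript and GC content. The mutant samples held 5276557 to 11819576 counts and the control samples 31060222 to 32712448, so low genes were measured less precisely in mutants. Mesenchyme markers were all detected in every sample, with a summed level of 26402 to 65628 CPM in control and 21853 to 28379 CPM in mutant samples. Most of it was Col1a1, at 18511 to 50909 CPM in control and 16455 to 22215 CPM in mutant samples. All 8 log2 fold changes were negative, with a median of -0.45, and 2 of the 8 were past the threshold as lower (Col1a2 and Pdgfrb). Dental epithelium markers summed to 85274 to 120895 CPM in control and to 31551 to 69673 CPM in mutant samples, with 0 of 8 past the threshold. Most of that sum was Amelx and Ambn. Of the 8 log2 fold changes, 7 were negative and 1, that of Epcam, was positive, with a median of -0.63. Of the odontoblast (5), endothelial (4), immune (4), Schwann cell (4), skeletal muscle (5) and bone (4) markers, 0 were past it in edgeR's test. Their part in the levels below was not tested. In bulk tissue, fewer cells of a type and less RNA per cell cannot be told apart.

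Related factors share sequence, which matters for assigning reads to them. The longest exact stretch shared by the longest Msx1 and Msx2 transcripts is 22 bases, in exon 2 of both genes. It is shown to let a reader compare the sequences, in capitals within 72 coding bases of GENCODE transcripts on GRCm38 that are identical at 61 positions. Both genes are on the minus strand, Msx1 at chr5:37821564-37821635 and Msx2 at chr13:53468457-53468528, and the sequences are written 5′ to 3′ along the transcript.

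Msx1: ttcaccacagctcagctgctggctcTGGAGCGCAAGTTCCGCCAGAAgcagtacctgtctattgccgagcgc

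Msx2: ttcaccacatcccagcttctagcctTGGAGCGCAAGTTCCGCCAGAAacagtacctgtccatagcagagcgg

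Twist1 and the related Twist2 share 23 bases in their coding sequence, in capitals within 73 bases that are identical at 66 positions. Twist1 is at chr12:33958355-33958427 and Twist2 at chr1:91801866-91801938, both on the plus strand and in exon 1.

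Twist1: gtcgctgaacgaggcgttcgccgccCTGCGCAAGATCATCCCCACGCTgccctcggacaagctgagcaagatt

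Twist2: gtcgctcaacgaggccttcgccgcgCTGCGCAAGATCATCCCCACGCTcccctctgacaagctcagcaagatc

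The longest shared stretch was 14 bases for Lhx6 and Lhx8 and 17 bases for Prrx1 and Prrx2. No stretch of 75 bases, the length of the single reads, was shared by any annotated transcript of the 4 pairs, with 0 such words in each. Part of a gene is also covered by other annotated genes. Pax9 overlaps Slc25a21 and the antisense gene Gm15524 on the opposite strand, and Lhx6 overlaps Gm27953 on the same strand. Prrx1 overlaps Gm20471 on the opposite strand and Gm26523 and Gm37644 on the same strand. These are overlaps of whole gene spans, introns included, and whether exons overlap was not determined. Whether the counting used strand is not stated, so how reads in any shared exon were assigned is not known.

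The promoters of Msx1, Msx2 and Barx1 are shown because these genes mark both ends of the range of levels described below. Each is the 300 bases around the RefSeq start (GRCm38.p6), most of them before it, and is written 5′ to 3′ on the gene's strand, Msx1 from chr5:37824536-37824835 and Msx2 from chr13:53472731-53473030, both minus, and Barx1 from chr13:48662786-48663085, plus. Capitals mark CCAAT and GGGCGG on either strand, which do not overlap each other in these sequences. Neighbouring GGGCGG matches can overlap.

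Msx1: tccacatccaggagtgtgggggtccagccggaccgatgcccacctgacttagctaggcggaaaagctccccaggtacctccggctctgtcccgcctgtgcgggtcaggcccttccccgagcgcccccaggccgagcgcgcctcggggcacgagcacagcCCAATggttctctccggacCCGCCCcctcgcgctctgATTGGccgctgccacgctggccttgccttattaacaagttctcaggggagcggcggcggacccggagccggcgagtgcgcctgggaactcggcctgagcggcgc

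Msx2: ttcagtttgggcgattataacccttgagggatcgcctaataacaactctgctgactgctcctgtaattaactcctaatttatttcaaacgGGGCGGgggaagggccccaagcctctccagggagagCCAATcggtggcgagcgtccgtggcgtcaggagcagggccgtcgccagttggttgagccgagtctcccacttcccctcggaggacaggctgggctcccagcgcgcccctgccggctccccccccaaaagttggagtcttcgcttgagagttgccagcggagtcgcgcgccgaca

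Barx1: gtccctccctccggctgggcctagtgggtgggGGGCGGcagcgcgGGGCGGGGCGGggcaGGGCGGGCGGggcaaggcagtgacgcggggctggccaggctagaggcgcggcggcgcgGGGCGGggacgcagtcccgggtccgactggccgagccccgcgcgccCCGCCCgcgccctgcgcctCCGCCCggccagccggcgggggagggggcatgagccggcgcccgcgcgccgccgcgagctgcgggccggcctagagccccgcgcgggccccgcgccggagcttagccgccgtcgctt

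The Msx1 promoter holds 2 CCAAT and 1 GGGCGG matches and is 70% GC. That of Msx2 holds 1 of each and is 61% GC. The Barx1 promoter is 84.7% GC, with 50 CpG dinucleotides and 8 GGGCGG matches, and holds no CCAAT. Over 32851 RefSeq promoters, 37.4% held CCAAT and 35.7% held GGGCGG, and the medians were 52.7% GC and 7 CpG dinucleotides. Twist1 alone among the first promoters of the 8 measured genes held TATAAA, which 13.6% of all promoters held. A match is a description of these letters.

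Msx1 and Msx2 encode homeodomain repressors of the muscle segment homeobox family. Msx1 is required for teeth to pass the bud stage, and Msx2 acts in both dental mesenchyme and the enamel-forming epithelium. Msx1 had 332, 234 and 165 CPM in control samples 1 to 3 and 363, 322 and 279 CPM in mutant samples 1 to 3. The mutant samples were the more even, with a mean of 321 ± 41.6 against 244 ± 84.2 CPM (SD, n = 3 each), and control sample 1 lay within their range. The log2 fold change of Msx1 was 0.40 (SE 0.30, 95% interval -0.30 to 1.09; adjusted p = 0.545, edgeR).

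Msx2 was the most evenly expressed of the 8 genes. It had 245, 194 and 214 CPM in controls against 211, 224 and 185 CPM in mutants, and all but the highest and lowest samples lay within the range of the other group. The coefficient of variation was 12.0% in control and 9.55% in mutant samples, against medians of 24.1% and 44.1% over 14729 genes. Those genes were not matched to Msx2 in level and include low genes, which were measured less precisely in mutants. The log2 fold change of Msx2 was -0.07 (SE 0.22, 95% interval -0.59 to 0.44; adjusted p = 0.910, edgeR), the narrowest interval among the members.

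The ratio of Msx1 to Msx2 counts within a sample does not depend on how libraries are scaled. On the log2 scale it was 0.44, 0.27 and -0.37 in controls against 0.78, 0.52 and 0.59 in mutants. Every mutant sample lay above every control sample, with a difference of 0.52. The exact permutation test gave p = 0.1 (two-sided), the smallest that 3 samples against 3 allow, and 0.4 after adjustment over the 4 ratios tested. Without control sample 3, in which Msx1 was lowest, the difference was 0.27. Of the counts of all 8 genes, Msx1 took 48.0, 45.4 and 36.3% in controls against 50.6, 49.0 and 51.5% in mutants.

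Pax9, a paired-box factor required in the mesenchyme of the tooth bud, varied more among mutant samples (coefficient of variation 56.7%) than among controls (21.8%). It had 14.7, 14.6 and 9.74 CPM in controls against 13.8, 23.2 and 6.75 CPM in mutants. The highest and the lowest of the 6 values were both from mutant samples, and their exact Poisson 95% intervals, 20.5 to 26.2 and 5.23 to 8.57 CPM, did not overlap. These intervals cover counting error only. The log2 fold change of Pax9 was 0.17 (SE 0.55, 95% interval -1.11 to 1.44; adjusted p = 0.917, edgeR), and without mutant sample 2 it was -0.36.

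Lhx6 and Lhx8 are LIM-homeodomain factors with overlapping roles in molar mesenchyme. Lhx6 had 9.09, 7.06 and 9.71 CPM in controls against 13.8, 21.9 and 7.56 CPM in mutants. Mutant samples 1 and 2 were above all controls, and mutant sample 3 was within their range. This was the largest positive log2 fold change among the members, 0.74 (SE 0.56, 95% interval -0.56 to 2.04; adjusted p = 0.544, edgeR). It was 0.29 without mutant sample 2, and 1.24 with correction for length of the transcript and GC content (unadjusted p = 0.0515, edgeR). Under that correction 0 members were past either threshold, although Msx1, at 0.60, was also close to it (unadjusted p = 0.0574, edgeR).

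Lhx8 had 22.3, 13.5 and 13.6 CPM in controls against 16.8, 14.2 and 11.6 CPM in mutants. Control sample 1 was highest, and the other samples of both groups lay between 11.6 and 16.8 CPM. Its log2 fold change was -0.22 (SE 0.43, 95% interval -1.22 to 0.78; adjusted p = 0.849, edgeR). The log2 ratio of Lhx6 to Lhx8 was -1.30, -0.93 and -0.49 in controls against -0.29, 0.63 and -0.61 in mutants. These groups overlapped at mutant sample 3, and the difference of 0.81 had an exact permutation p of 0.2 (adjusted 0.4).

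Barx1, a homeobox gene of the molar rather than the incisor field, was near the limit of detection. It had 20, 39 and 37 counts in controls against 0, 0 and 18 counts in mutants, which is 0.583, 1.07 and 1.07 CPM and then 0, 0 and 1.81 CPM. The sample with the highest level and those with none were thus all mutant. With 0 counts observed, up to 3 remain possible, or 0.655 CPM for mutant sample 1 and 0.256 CPM for mutant sample 2, so the 0 in mutant sample 1 still allows the level of control sample 1. The fitted log2 fold change was -0.54 (SE 1.54, 95% interval -4.07 to 3.00; adjusted p = 0.902, edgeR). Barx1 passed the filter on low counts chiefly through the control samples. Without mutant sample 3 both remaining mutant samples are at 0. Barx1 was then the only member past the study's threshold as lower, making that count 1, with an adjusted p of 0.0659 (edgeR). That call rests on the control samples, and 2572 of the 17123 genes tested in that fit were also past the threshold as lower.

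**Figure D1:**
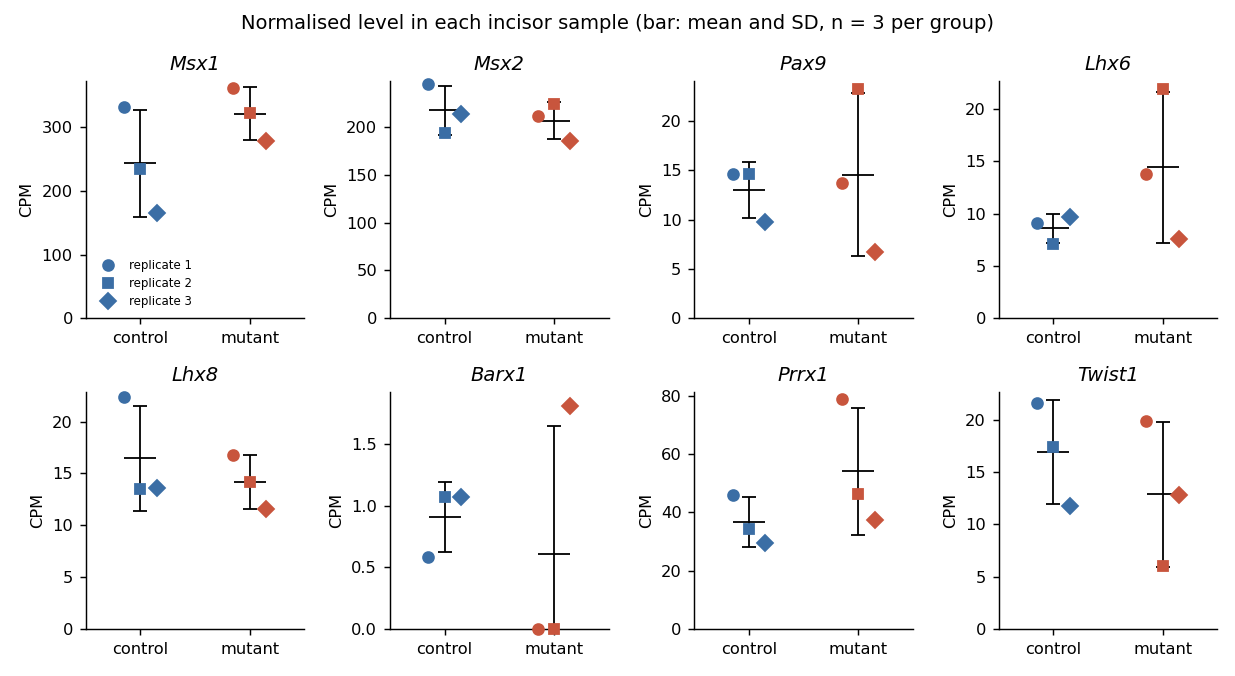
Level of each gene in CPM (linear axes from 0, 1 panel a gene) in 3 control (blue) and 3 mutant (red) samples, with symbols for replicates and black bars for mean and SD. The groups overlap in every panel; Lhx6 and Pax9 are highest in mutant sample 2, and Barx1 is at 0 in mutant samples 1 and 2.

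Prrx1, a paired-related homeobox gene of limb and craniofacial mesenchyme, had 46.0, 34.2 and 29.5 CPM in controls against 78.8, 46.1 and 37.5 CPM in mutants. Mutant sample 1 stood apart, mutant sample 2 was just above the highest control, and mutant sample 3 was within the controls' range. The log2 fold change of 0.56 (SE 0.34, 95% interval -0.23 to 1.35) had the smallest p of the members, 0.141 (adjusted p = 0.430, edgeR). Without mutant sample 1 it was 0.18. The related gene Prrx2 had 73.0, 39.7 and 45.5 CPM in controls against 22.5, 68.8 and 54.4 CPM in mutants, lowest in the sample where Prrx1 was highest. In that sample 5 skeletal muscle markers summed to 4984 CPM, against 7.84 to 1875 CPM in the 5 other samples, and their part in the Prrx1 and Prrx2 levels was not tested. The log2 ratio of Prrx1 to Prrx2 was 1.80 in mutant sample 1 and between -0.67 and -0.22 in the 5 other samples. Its difference between the genotypes, 0.73, had an exact permutation p of 0.5 (adjusted 0.667).

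Twist1, a basic helix-loop-helix factor of cranial mesenchyme, had 21.6, 17.4 and 11.7 CPM in controls against 19.9, 5.98 and 12.8 CPM in mutants. Only mutant sample 2 lay outside the controls' range, and it was also the sample in which Pax9 and Lhx6 were highest. The log2 fold change of Twist1 was -0.40 (SE 0.55, 95% interval -1.66 to 0.85; adjusted p = 0.766, edgeR), and it was -0.07 without mutant sample 2. The log2 ratio of Twist1 to Twist2 was -1.98, -1.14 and -2.06 in controls against -0.70, -3.61 and -1.79 in mutants, which spread on both sides of the controls. Its difference was -0.31, with an exact permutation p of 0.9 (adjusted 0.9).

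**Figure D2:**
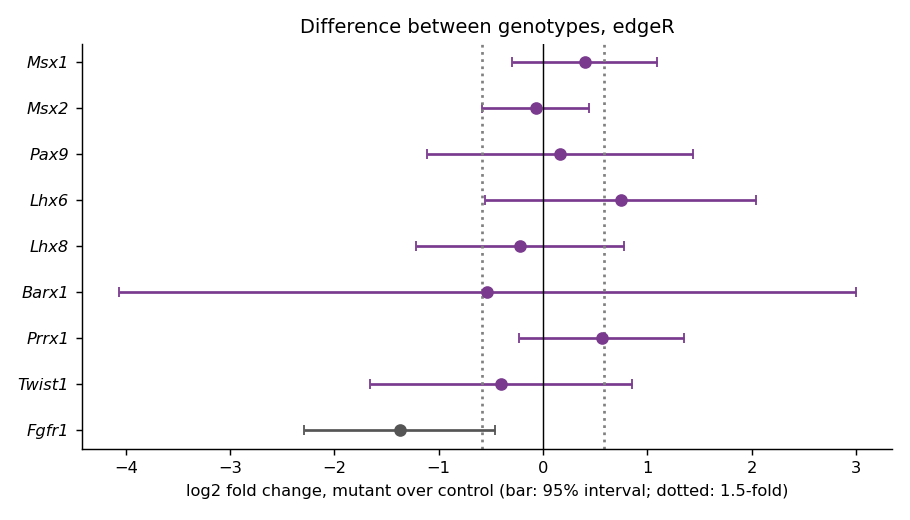
Log2 fold change of mutant over control samples (3 against 3) for the 8 genes and Fgfr1, with 95% intervals, and dotted lines at 1.5-fold. The intervals of all 8 genes include 0, from the narrow one of Msx2 to that of Barx1 at -4.07 to 3.00, whereas that of Fgfr1 lies between -2.29 and -0.46.

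**Figure D3:**
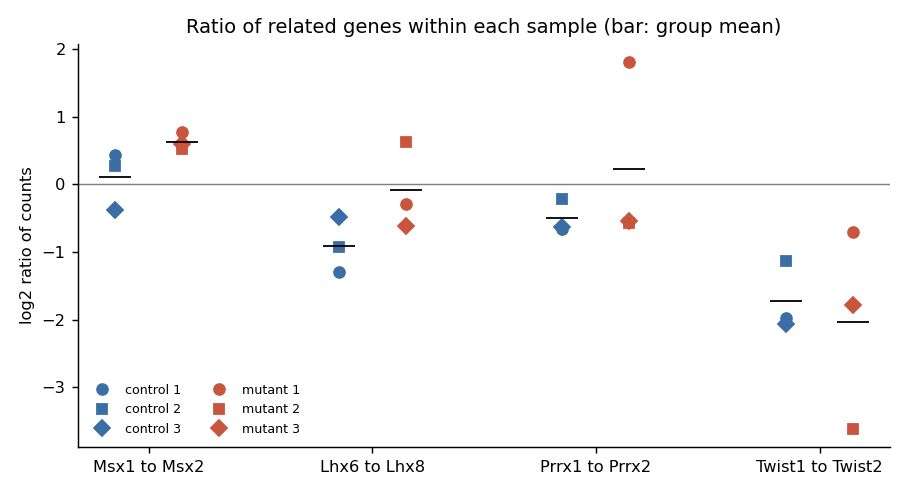
Log2 ratio of counts of related genes within each sample, for 3 control (blue) and 3 mutant (red) samples, with bars at group means. For Msx1 to Msx2 the mutant samples, at 0.52 to 0.78, are above the control samples, at -0.37 to 0.44, and the groups overlap for the other ratios.

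Per kilobase of the longest annotated transcript, the Msx genes were well above the other members in both genotypes. In the control samples the order by mean CPM per kilobase was Msx1 (126 ± 43.5), Msx2 (88.7 ± 10.6), Twist1 (10.4 ± 3.06), Lhx8 (7.94 ± 2.45), Prrx1 (5.60 ± 1.30), Pax9 (3.07 ± 0.67), Lhx6 (2.48 ± 0.40) and Barx1 (0.649 ± 0.20), as mean ± SD over 3 samples. Neighbours in this order overlapped in their samples from Msx1 to Msx2, Twist1 to Lhx8, Lhx8 to Prrx1 and Pax9 to Lhx6. In the mutant samples Msx1 (166 ± 21.5) and Msx2 (84.4 ± 8.06) no longer overlapped. There Prrx1 (8.29 ± 3.34), Twist1 (7.91 ± 4.26) and Lhx8 (6.84 ± 1.26) followed with overlapping samples, then Lhx6 (4.14 ± 2.07), whose samples overlapped those of Lhx8, Pax9 (3.44 ± 1.95), and Barx1 (0.432 ± 0.749), below all samples of Pax9. The transcript actually used in the incisor was not determined, so the order depends on the annotated lengths.

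The 6-sample profiles of the members resembled each other to different degrees. Likeness was measured as the Euclidean distance between profiles of log2(CPM + 1), each centred on its own mean, so 0 is an identical profile and a flat profile is close to any other flat one. The closest members were Msx2 and Lhx8 (0.454), then Msx1 and Prrx1 (0.598), and the farthest were Lhx6 and Barx1 (2.54). Pax9 and Lhx6, both highest in mutant sample 2, were 0.976 apart.

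Among genes with a mean of at least 10 CPM, those closest to Msx1 were Anxa3, Anxa1 and Hey1, from 0.219. Ppil2, Gnb1 and Cbfb were closest to Msx2, from 0.118. For Lhx8 these were Ilk, Syf2 and Rnf8, from 0.225. Pax9 was nearest to Arhgdib, Maob and Slc35d1, from 0.292, and Lhx6 to Arl5b, Cirbp and Nsmce4a, from 0.307. Prrx1 had Tiparp, Cmtm3 and Epha3 as its nearest genes, from 0.208. Twist1 had Kdm1b, Snx8 and Cpxm2, from 0.362, and Barx1 had Capn15, Acsl3 and Stxbp2, from 0.368. These are descriptions over 6 samples that share their libraries.

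**Figure D4:**
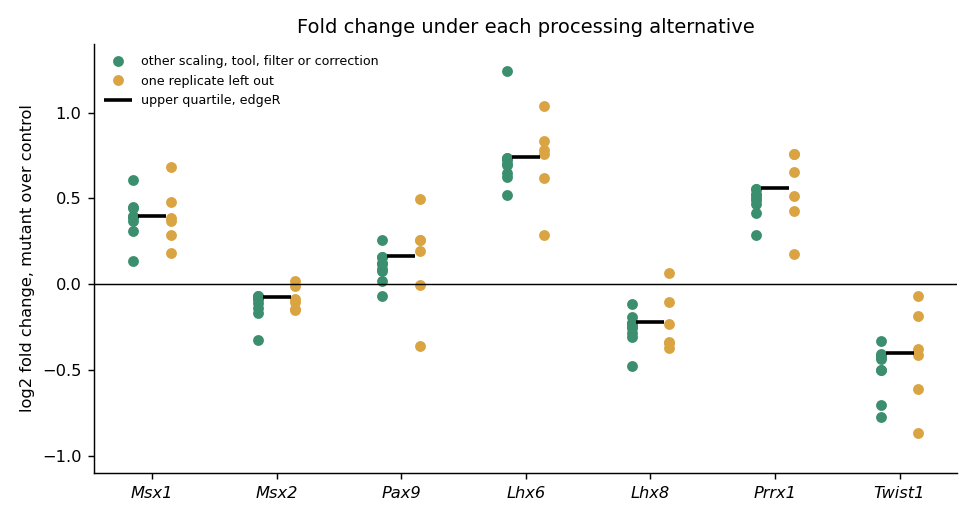
Log2 fold change of 7 genes (Barx1 is left out, for its counts of 0) under edgeR with upper-quartile scaling (black), under other scalings, tools, filters and corrections (green), and with one replicate left out (yellow). Msx1, Lhx6 and Prrx1 stay above 0 and Twist1 below 0 under each alternative. Pax9 falls on both sides, from -0.36 to 0.50, as do Msx2, from -0.33 to 0.021, and Lhx8, from -0.48 to 0.063.

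Genes of the related lists were called as higher about as often as all genes, and as lower at a larger share. Of 61 tested genes in 4 related lists, 6 were higher (9.84%) and 8 lower (13.1%) past the study's threshold, beside the 10.9% and 8.92% of all genes given above. Of the 8 lower genes, 4 passed the filter on low counts only through the control samples, in which they are high. These were Tfap2c, Foxd1, Shox2 and Gsc, which are therefore given by their counts.

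Of 5 tested paralogs, 1 was past the threshold as higher and 1, Tfap2c, as lower. Tfap2a, an AP-2 factor of neural crest and epithelium, rose (log2 fold change 0.83, adjusted p = 0.247, edgeR), but it was not past the threshold in 10 of 15 alternatives. These included TMM scaling, total counts alone, limma-voom, thinned controls, the replicate block and all but one of the fits with a replicate left out. Tfap2c had 61, 55 and 60 counts in controls against 0 in all mutants, at least 4.14-fold lower when 3 counts are allowed per mutant library. The paralogs' median log2 fold change was -0.20, also with Tfap2c at its bound.

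Of 16 cofactors and partners, 2 rose and 1 fell, with a median of 0.11. Ssbp3, which binds the LIM-domain-binding protein that LIM-homeodomain factors such as Lhx6 and Lhx8 use, had 70.5, 81.5 and 79.8 CPM in controls against 39.7, 38.8 and 46.6 CPM in mutants. The 3 mutant samples lay well below all controls (log2 fold change -0.89, SE 0.22, adjusted p = 0.0487, edgeR). With the length and GC correction Ssbp3 was at -0.49 (unadjusted p = 0.0328, edgeR), under the 1.5-fold limit. Tcf4, an E protein that dimerises with Twist1, rose by 0.91 on the log2 scale (adjusted p = 0.107, edgeR). It was not past the threshold after that correction, at 0.58, or without mutant sample 1, at 0.64. Id4, an inhibitor of E proteins, rose by 0.65 (adjusted p = 0.225, edgeR), but was not past the threshold in 9 of 15 alternatives, among them TMM scaling, total counts alone, limma-voom and the length and GC correction (0.39).

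Of 22 other craniofacial mesenchyme transcription factors, 1 was past the threshold as higher and 3 as lower, with a median of -0.41. Sox11, a neural crest and mesenchyme factor, rose by 0.78 on the log2 scale (adjusted p = 0.238, edgeR). It was not past the threshold in 9 of 15 alternatives, which were TMM scaling, total counts alone, DESeq2, the replicate block and all but one of the fits with a replicate left out. Foxd1 had 109, 91 and 95 counts in controls against 0, 2 and 0 in mutants. Shox2 had 127, 138 and 64 counts against 0, 0 and 2, and Gsc had 164, 120 and 155 against 3, 0 and 7. With control counts thinned to a mean total of 9484797, these 3 genes and Tfap2c were still past the threshold as lower. These calls again rest on the control samples, and mutant sample 1 is shallower still, at 5276557 counts. Apart from that thinning, the part of depth in the low mutant counts was not tested. Gsc was not past the threshold in 7 of 15 alternatives, including no filter, the replicate block and each fit without a control sample.

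Of 18 early tooth signals, 2 rose and 3 fell, with a median of -0.13. The BMP and WNT antagonist Sostdc1 rose by 0.66 and the activin antagonist Fst by 1.12 on the log2 scale (adjusted p = 0.170 and 0.146, edgeR). Sostdc1 was not past the threshold in 6 of 15 alternatives, including TMM scaling, total counts alone and the length and GC correction, at 0.17. Fst was at 0.86 with that correction and past the threshold, but not without control sample 1 or 2. Bmp7, a ligand of the BMP pathway, fell by 0.66, the Hedgehog receptor and target Ptch1 by 0.73 and the ligand Wnt10a by 1.04 (adjusted p = 0.131, 0.137 and 0.126, edgeR). With the length and GC correction Bmp7 was at -0.14, Wnt10a at -0.36 and Ptch1 at -0.59, the last with an unadjusted p of 0.0522 (edgeR), and none was past the threshold. Without control sample 3 these 3 were also not past it, with Wnt10a at -0.81. Without mutant sample 2 Bmp7 and Ptch1, and without mutant sample 3 Ptch1, were not past it either. Bmp4, a partner of Msx1 in the tooth bud, had a log2 fold change of -0.34 and did not pass the threshold.

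**Figure D5:**
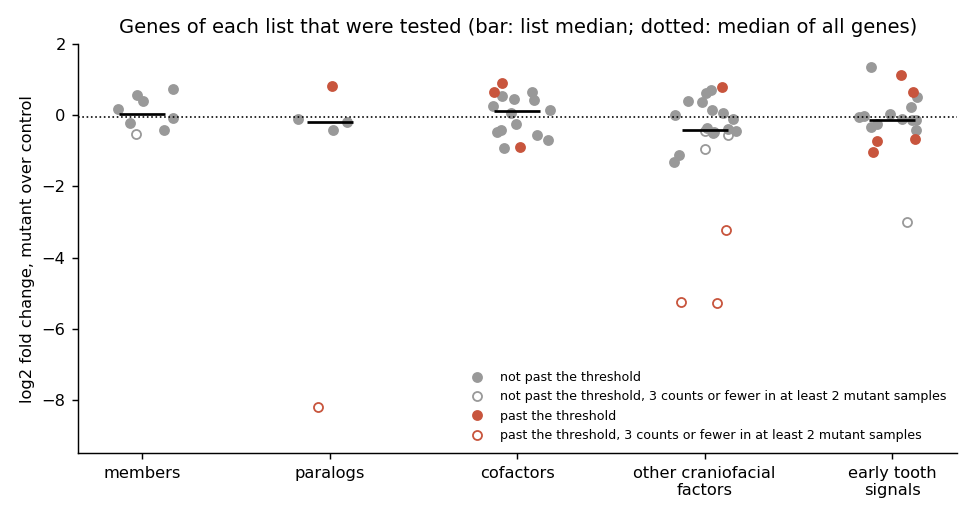
Log2 fold change (mutant over control, edgeR) of each tested gene in the members and 4 related lists, in red where past an unadjusted p of 0.05 and 1.5-fold, with open circles for genes with 3 counts or fewer in at least 2 mutant samples, whose fitted values are not bounds. The 8 members have no red point, and the lists' medians, from -0.41 to 0.11, are drawn as bars beside the median of all genes at -0.04.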

How the data were processed

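RNA of 3 control and 3 mutant samples from the proximal end of the incisor was sequenced as single reads of 75 bases. The authors trimmed and aligned reads to mm10 in Partek Flow (the submitters' processing notes name TopHat2 2.0.8) and deposited estimated counts per gene, not normalized. A deposited table of the authors' own comparison (p-values, adjusted p-values, ratios, fold changes, group means) was not used. Counts were rounded. edgeR 4.0.16 (R 4.3.3) was run with upper-quartile scaling, filterByExpr (minimum count 10, total 15) and genotype as the only term. Approximate SE is the absolute log2 fold change over the square root of F, and 95% intervals use the t distribution at the fit's degrees of freedom. DESeq2 1.42.0 and limma 3.58.1, other scalings and filters, thinned controls, correction for the length and GC content of transcripts (GENCODE M21), a replicate block and fits without each replicate were alternatives. Ratios used counts plus 0.5 and, since Tfap2b was not analysed here, were adjusted over 4 rather than the planned 5. Scripts were tested on simulated data. Total counts were 31060222 to 32712448 in control and 5276557 to 11819576 in mutant samples.

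Genes named were the members, Fgfr1, in each related list up to 3 higher and 3 lower genes with the smallest p past the study's threshold, and the 3 genes closest to each member. Prrx2, Bmp4, Col1a2, Pdgfrb and the genes overlapping a member were named outside this rule, after their values were seen. The members and lists were chosen with earlier results of these data known.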

Additional observations from a re-analysis of the deposited data

How the results depend on the processing

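The counts of members past the study's threshold as higher and with an adjusted p under 0.05 were 0 under all 15 alternatives. The count as lower was 0 except without mutant replicate 3 (range 0 to 1 with one replicate left out). That 1 was Barx1, at 0 counts in both remaining mutant samples, beside 2572 of 17123 genes lower in that fit. Directions changed only for uncalled values. Pax9 was -0.071 with total counts alone and ranged from -0.36 to 0.50 with a replicate left out, with -0.0059 without control replicate 3. The ranges were -0.15 to 0.021 for Msx2 and -0.37 to 0.063 for Lhx8, both positive without control replicate 1, and -7.48 to 0.076 for Barx1. The ratio of Prrx1 to Prrx2 ran from -0.055 (without mutant replicate 1) to 1.14, and that of Twist1 to Twist2 from -0.97 to 0.48 (without mutant replicate 2). Past the threshold in the related lists, 6 genes were higher and 8 lower. The higher count was 2 with TMM scaling and with total counts alone, and the lower count was 5 when means of 50 counts were required and 4 with the length and GC correction. Over all 15826 genes, 1518 and 1253 were higher with those scalings. Lower were 1018 of 13168 with that filter and 1170 of 15557 with that correction. With a replicate left out the counts ran from 2 to 5 and from 5 to 13. The 13 arose without mutant replicate 2, where 2826 of 17099 genes were lower. The 5 lower arose without control replicate 3, where 776 of 15600 were. The causes were not tested.

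With the replicate block, 0 members were past either threshold, and 508 of all genes had an adjusted p under 0.05 rather than 1074. Same-numbered samples correlated at 0.0228 to 0.0883, so the numbers were not taken as a pairing, although each control sample correlated best with its own number. The study's methods speak of pairs without saying what links them. In the related lists the block gave 5 higher and 6 lower genes, beside 1503 higher and 1240 lower of all 15826 genes. Tfap2a, Tfap2c, Sox11 and Gsc were no longer past the threshold (unadjusted p = 0.0974, 0.0511, 0.0550 and 0.0849, edgeR). Total counts alone shifted the all-gene median log2 change from -0.04 to -0.30, the share of calls that were higher from 55.0 to 34.9%, and the number of negative members from 4 to 5. Length and GC correction left 120 genes with an adjusted p under 0.05, the fits without a replicate 76 to 606, and DESeq2 1890. Barx1 was not tested with thinned controls or the filter at 50 counts. Depth limits what the 0 counts of Barx1 in mutant samples can show.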
